A study of Mus musculus with 12 samples.

Results

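The genes described here are 10 genes of systemic iron handling, taken by symbol: the hepcidin genes Hamp and Hamp2, the hepcidin regulators Bmp6, Hfe and Tfr2, the iron carrier and its uptake receptor Trf and Tfrc, the iron exporter Slc40a1, and the ferritin genes Fth1 and Ftl1. All 10 were found among the 41128 genes of the table, and all 10 had a mean value of at least 10, the minimum for a test, which 11782 genes reached. Bmp6 reached it only through its level in conventionalized livers. The genes were chosen by function and symbol and not by a cut on their values, but with earlier results of these data known. RNA sequencing libraries had been made from livers of C57BL/6 mice, all bred in sterile isolators until weaning at 21 days. Germ-free (GF) mice stayed in the isolators, and conventionalized (CV) mice were housed from weaning on in cages with soiled bedding from other animals, a source of microbes. The mice were 6 weeks old, 3 weeks after weaning, and there were 12 libraries, 3 for each sex of either condition as labelled. The labels give neither litter nor cage, so p-values measure the spread between these libraries. The question asked here is whether the mRNA of these genes differs between GF and CV livers of each sex.

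Hepcidin is a peptide hormone made by hepatocytes that binds the iron exporter ferroportin and causes its degradation, which lowers the release of iron into blood. Its transcription in hepatocytes follows BMP ligands from liver endothelial cells acting through SMAD proteins, with HFE and transferrin receptor 2 as sensors of iron-loaded transferrin, and it also follows IL-6 acting through STAT3. Inside cells, iron regulatory proteins bind a stem-loop called the iron-responsive element (IRE): in the 5′ untranslated region of ferritin and ferroportin mRNA it restrains translation, and in the 3′ untranslated region of transferrin receptor mRNA it protects the mRNA from decay. The libraries measure mRNA, and protein was not measured.

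The hepcidin genes are a local duplication, and their upstream sequences are shown because Hamp and Hamp2 differed in their pattern across the libraries. The windows are the 250 bases before the RefSeq transcription start on the minus strand of GRCm38.p6, at chr7:30944030-30944279 for Hamp and chr7:30924182-30924431 for Hamp2. Capitals mark matches to GGCGCC, a core of BMP-responsive elements bound by SMAD proteins, and to TTCNNNGAA, the form bound by STAT proteins, each searched on both strands.
Hamp: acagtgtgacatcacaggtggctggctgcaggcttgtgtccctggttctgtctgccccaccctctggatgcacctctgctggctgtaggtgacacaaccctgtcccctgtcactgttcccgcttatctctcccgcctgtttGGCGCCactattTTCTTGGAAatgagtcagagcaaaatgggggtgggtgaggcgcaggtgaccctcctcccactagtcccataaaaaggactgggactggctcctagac
Hamp2: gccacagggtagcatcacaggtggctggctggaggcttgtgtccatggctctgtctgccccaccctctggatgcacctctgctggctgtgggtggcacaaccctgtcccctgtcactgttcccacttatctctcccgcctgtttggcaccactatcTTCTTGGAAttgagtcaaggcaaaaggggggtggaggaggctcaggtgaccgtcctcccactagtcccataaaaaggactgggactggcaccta
Over 247 aligned bases the windows were 91.9% identical, with 20 substitutions. The Hamp window held GGCGCC at 109 to 104 bases before the start, and the Hamp2 window held none. At that place the substitution, counted from 1 at the 5′ end of the Hamp window, was G145A. TTCNNNGAA stood at 97 to 89 bases before the start in Hamp and at 94 to 86 in Hamp2. Of 32851 RefSeq windows of this length, 9.59% held GGCGCC, 7.02% held TTCNNNGAA and 0.368% held both. Windows existed for 8 of the 10 genes, and Tfrc was the other gene with GGCGCC. A match describes letters only, and no factor binding was measured.

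The IRE is shown because it is the element that the ferritins, ferroportin and Tfrc share. A further reason is that the mRNAs of these 4 genes differed in direction by the region that holds it. The search covered 1 transcript per protein-coding gene. Its pattern was a C, an arm of 5 bases, the loop CAGTGH (H for A, C or T) and 5 bases that pair with the arm. Pairs of G with T were allowed. The pattern matched 196 of 21901 transcripts (0.895%) and 4 of the 10 genes, with 7 matches in them. Capitals mark the bulged C and the loop.
Fth1, 5′ region, chr19:9982732-9982759, plus strand: ttcctgCttcaaCAGTGCttgaacggaa
Ftl1, 5′ region, chr7:45459780-45459807, minus strand: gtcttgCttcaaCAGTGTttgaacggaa
Slc40a1, 5′ region, chr1:45925466-45925493, minus strand: caacttCagctaCAGTGTtagctaagtt
Tfrc, 3′ region, chr16:32631219-32631246, plus strand: aattatCggaagCAGTGCcttccataat
Tfrc, 3′ region, chr16:32631598-32631625, plus strand: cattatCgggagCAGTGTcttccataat
Tfrc, 3′ region, chr16:32631663-32631690, plus strand: ctatatCggagaCAGTGAtctccatatg
Tfrc, 3′ region, chr16:32631710-32631737, plus strand: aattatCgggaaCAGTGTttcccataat
The coordinates are those of GRCm38. The 3 genes with a match in the 5′ region had higher mRNA in CV livers of both labelled sexes, and Tfrc had lower mRNA in both. No binding by iron regulatory proteins was measured, and the part of the element in these differences was not tested. The directions of the other matching transcripts are not given here.

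The libraries held 5993619 to 15290835 reads, and the smallest difference among the 66 pairs of libraries was a chi-square of 13.2 per degree of freedom, so each was counted as a separate sample. Values are read counts divided by the size factor of the library, called normalized read counts below, and differences are CV minus GF on the log2 scale of the value plus 1. All 8 hepatocyte markers were detected in all 12 libraries. Both mitochondrial ribosomal RNA genes took 12.6% ± 2.85 (SD, n = 6) of the reads in GF and 3.12% ± 2.32 (SD, n = 6) in CV libraries. Adding Lars2, Mir6236 and 3 predicted genes, 7 abundant loci took 55.2% ± 12.1 in GF and 11.6% ± 7.81 in CV libraries (SD, n = 6). Of the variance of this share, 95.3% lay between the groups formed by condition and labelled sex, so that differences between the sexes are included. The share of the 7 loci was 41.8% to 69.4% in GF and 5.39% to 21.9% in CV libraries, without overlap. Its part in the differences below cannot be told apart from that of condition. With either share as a covariate, limma called 0 of the 10 genes in males, in females and over both sexes, with at most 3 at an unadjusted p under 0.05. Those fits called at most 13 of all 11782 genes in any of these comparisons, so the loss of calls was not particular to the iron genes. In the library labelled CV male 3, Y-linked genes had 0 reads, against 796 to 1314 in the other 5 libraries labelled male, and Xist had a normalized read count of 2382. It is kept under its label, and results that turn on it are given without it.

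Of the 10 iron genes, limma with Benjamini-Hochberg adjustment over all genes called 4 higher and 1 lower in CV males, where 29.5% of all genes tested were called (14.1% higher, 15.4% lower). In females it called 5 higher and 1 lower, where 55.8% of all genes were called (29.8% higher, 26% lower). Over both sexes it called 7 higher and 1 lower, where 61.1% were called (32.3% higher, 28.7% lower). The 7 include Bmp6, which was tested only because of its CV level, and without it 6 of 9 were higher and 1 lower. The median log2 difference of the 10 genes was 0.96 in males, 1.29 in females and 0.99 over both sexes (0.95, 1.26 and 0.87 without Bmp6), against 0.06, 0.08 and 0.07 for all genes. The libraries of GF and CV did not overlap for 5 of the 10 genes in males (43% of all genes) and for 9 in females (64.9%), Bmp6 included. Hfe, Slc40a1, Fth1 and Ftl1 were higher and Tfrc was lower without overlap in both sexes, a pattern of 36.4% of all genes (18.6% higher, 17.9% lower). In this fit the share of iron genes called in females was thus near the background, but the count depended on the setting. Without the library labelled CV male 3, limma called 8 of the 10 in females, and 6607 of all 11782 genes. The fit on the 6 female libraries alone also called 8, and 6828 of all genes. After correction for length and GC it was 9, and 5910 of 11731 genes. Scaled to the reads outside the 7 loci it was 5, and 6505 of 11782 genes. With each library left out in turn it was 6 to 8. In bulk tissue, fewer cells of a type and less RNA per cell cannot be told apart.

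**Figure D1:**
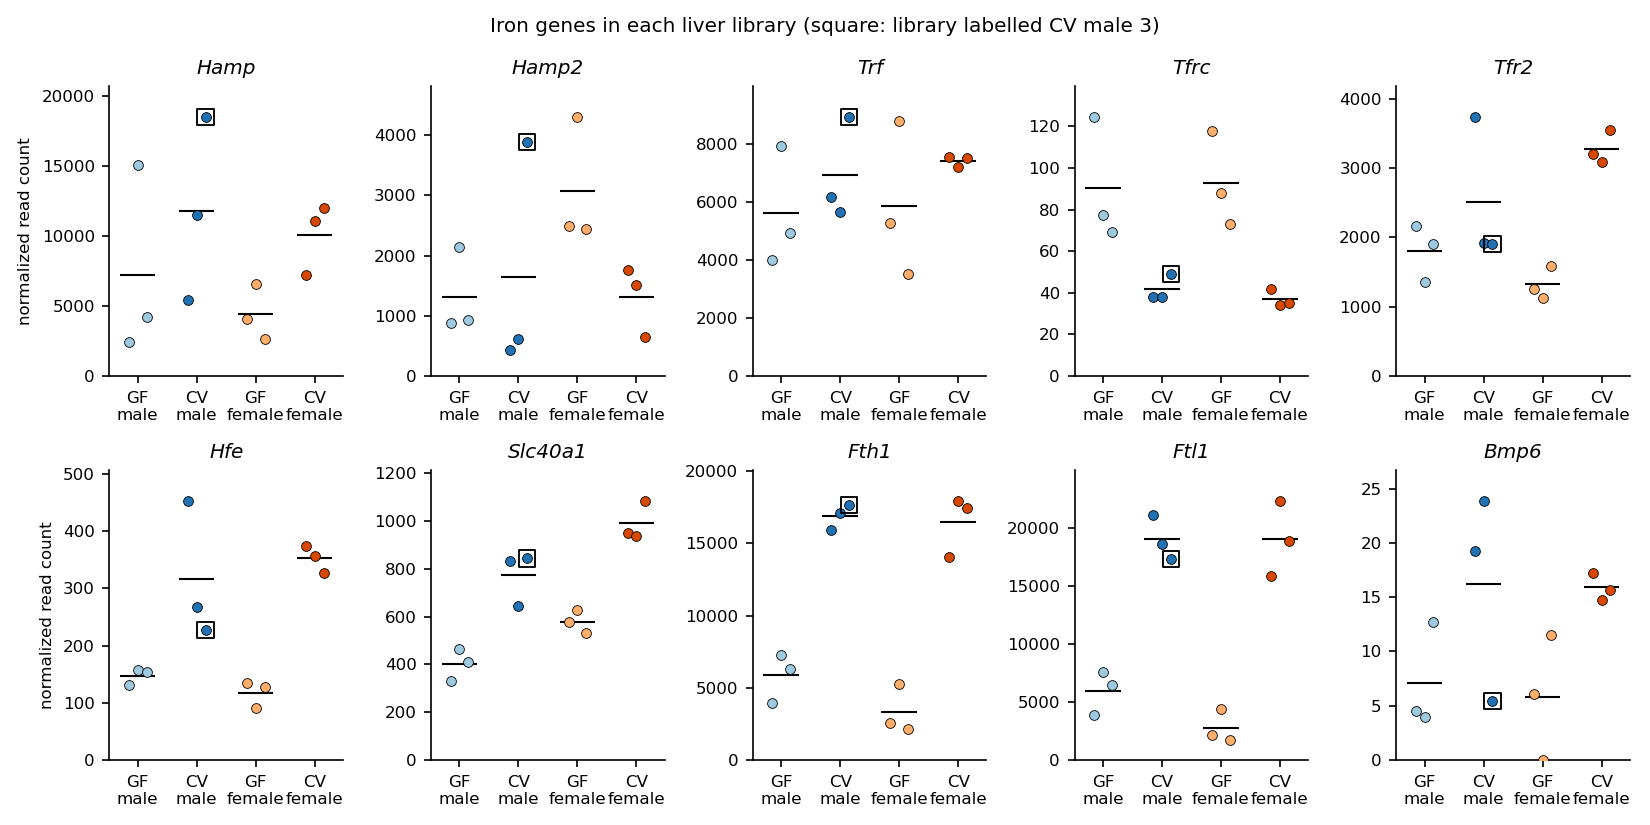
Normalized read count (linear axis from 0, 1 panel per gene) of the 10 iron genes in each of the 12 libraries, with points for libraries, bars for group means and a square around the library labelled CV male 3. Fth1 and Ftl1 show the widest separation, with GF libraries at 1687 to 7571 and CV libraries at 14026 to 22302, whereas Hamp and Hamp2 spread widely within groups.

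**Figure D2:**
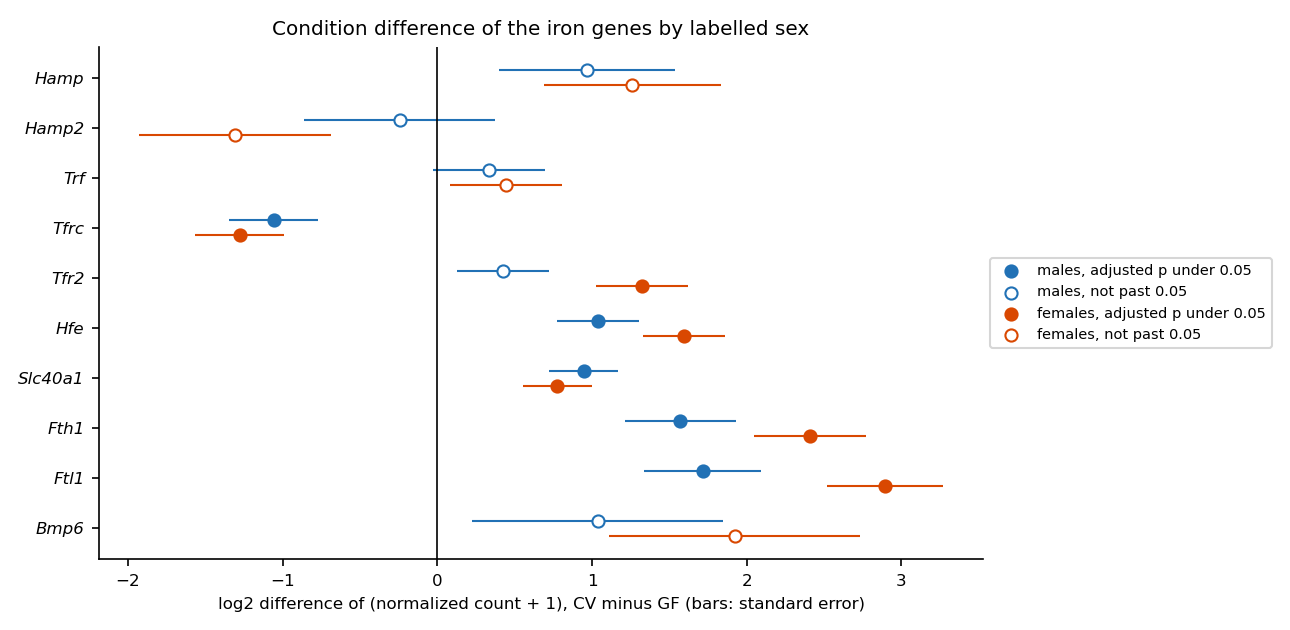
Log2 difference, CV minus GF, of each iron gene in males and in females with its standard error, filled where the adjusted p of limma was under 0.05. Tfrc lies at -1.06 and -1.28, and Ftl1 reaches 1.71 in males and 2.89 in females.

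Among the 10 genes, the storage genes Fth1 and Ftl1 had the largest differences. Fth1 encodes the ferritin heavy chain, which oxidizes iron for storage, and Ftl1 the light chain, which helps form the iron core. Fth1 lay at 3978, 7276 and 6316 in GF males and at 15929.5, 17079 and 17672 in CV males. In females, Fth1 was 2560.2, 5293 and 2143 in GF and 14026, 17920.4 and 17445 in CV livers. Every CV library was thus above every GF library, with the lowest values in GF females. The difference in Fth1 was 1.57 ± 0.36 (SE) in males (limma, adjusted p = 0.0058) and 2.41 ± 0.36 in females (adjusted p = 5.9e-05). This is 2.97-fold and 5.32-fold on the scale of the value plus 1.

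Ftl1 behaved much like Fth1 in level. Its values were 3918, 7571 and 6464 in GF males and 21065, 18618 and 17298 in CV males. GF females had 2175, 4421 and 1687, and CV females 15857, 22302 and 18853. Again no GF library reached a CV library, and Ftl1 rose by 1.71 ± 0.38 (SE) in males (limma, adjusted p = 0.0045) and by 2.89 ± 0.38 in females (adjusted p = 2.13e-05). The larger difference in females had an unadjusted p of 0.041 for Ftl1 in the limma contrast between the sexes, with an adjusted p of 0.424. Ferritin genes have processed copies that can share reads, of which Ftl1-ps1 reached a mean value of 62.4 in GF and 237 in CV libraries. When a trend on transcript length and GC content was removed from each library, the difference over both sexes went from 2.30 to 1.67 for Ftl1 and from 1.99 to 1.53 for Fth1, and both calls were kept.

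Within a library, the ratio of Ftl1 to Fth1 does not depend on scaling, but it can depend on transcript length and GC content. The trend on these was not removed from any of the 3 ratios tested. Ftl1 was 85.0%, 83.5% and 78.7% of Fth1 in GF females and 113%, 124% and 108% in CV females, without overlap. In males it was 98.5%, 104% and 102% in GF and 132%, 109% and 97.9% in CV livers, and the groups overlapped. Over both sexes the log2 ratio was higher in CV livers by 0.31 (two-sided exact permutation test within labelled sex, p = 0.02, adjusted over 3 ratios 0.02, where the smallest possible p is 0.005).

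The uptake receptor gene Tfrc moved the other way. It encodes transferrin receptor 1, which takes iron-loaded transferrin into cells. Other uptake genes are given with the lists below, and not all of them were lower. Tfrc was at 124, 77.2 and 69.4 in GF males and at 38.0, 38.2 and 49.1 in CV males. Females had 118, 87.8 and 72.8 in GF livers and 42.1, 34.3 and 34.9 in CV livers. All 6 CV libraries were below all 6 GF libraries, and males and females overlapped within each condition. Tfrc fell by 1.06 on the log2 scale in males (SE 0.29; limma, adjusted p = 0.013) and by 1.28 in females (SE 0.29; adjusted p = 0.0014). These values rest on 33 to 139 reads per library. In males the call was lost without GF male 1 (-0.81, limma adjusted p = 0.081).

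Erythroid precursors carry much transferrin receptor 1, and the globin genes among their markers moved in the same direction. Of the 10 erythroid markers listed, 8 were in the table and 6 were tested. Limma called 4 globin genes lower in CV livers over both sexes (28.7% of all genes lower), 4 in females (26%) and 1 in males (15.4%). Epor, the erythropoietin receptor gene, differed by 0.11 over both sexes (limma, adjusted p = 0.764). The summed value of the 8 genes was 2804 to 14056 in GF males against 2718 to 3178 in CV males, and 5311 to 32936 in GF females against 930.4 to 2008 in CV females. None was at 0 in all libraries, and 6 of the 8 were detected in each. Among them, Hbb-bt differed by -2.39 ± 0.42 (SE), whereas Alas2, the erythroid enzyme of haem synthesis, had means of 365 and 547 in GF and CV males and of 399.9 and 141 in females. Their part in the Tfrc difference was not tested.

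The ratio of Tfrc to Fth1 sets the uptake receptor against the storage protein within each library. Tfrc was 3.13%, 1.06% and 1.10% of Fth1 in GF males and 0.239%, 0.223% and 0.278% in CV males. The ratio was 4.60%, 1.66% and 3.40% in GF females and 0.300%, 0.191% and 0.200% in CV females. The conditions did not overlap in either sex, and the log2 ratio was lower in CV livers by a mean of -3.16 (two-sided exact permutation test within labelled sex, p = 0.005, adjusted over 3 ratios 0.015). This p is the smallest that the 400 relabellings can give. Tfrc was lower and Fth1 higher without overlap in both sexes, so the ratio had to separate. Its p was thus fixed in advance and adds nothing to the results of the 2 genes.

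**Figure D3:**
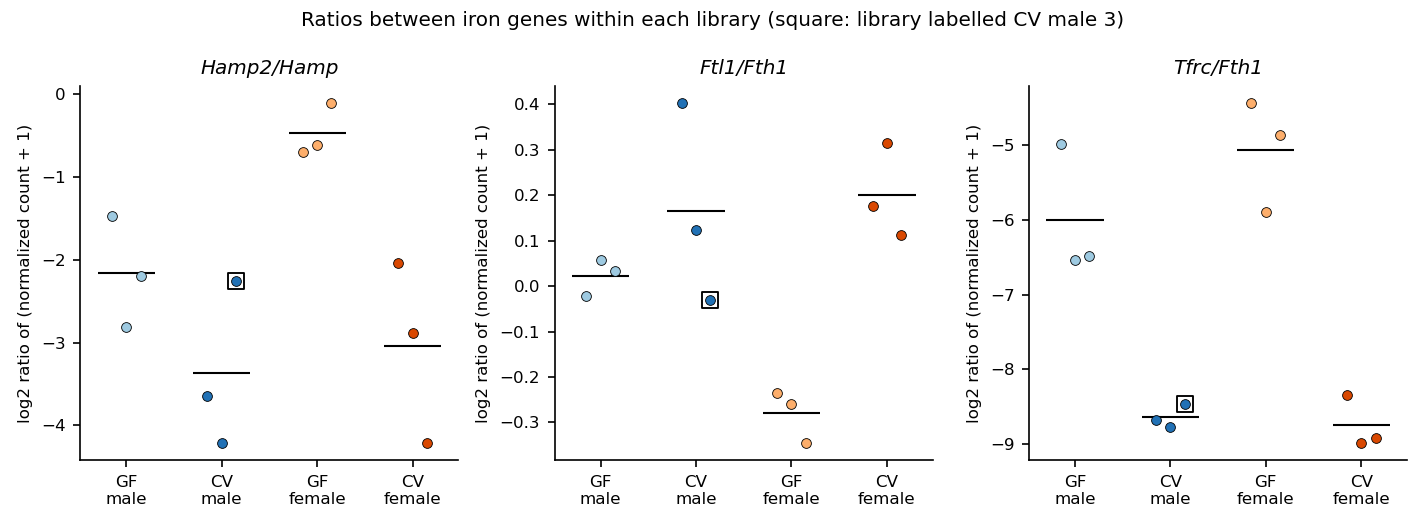
Log2 ratios within each library (values plus 1) of Hamp2 to Hamp, Ftl1 to Fth1 and Tfrc to Fth1, with points for the 3 libraries of each group, bars for group means and a square around the library labelled CV male 3. The Tfrc to Fth1 ratio lies between -6.54 and -4.43 in GF and between -8.99 and -8.35 in CV libraries.

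Trf encodes transferrin, the plasma carrier of iron that hepatocytes secrete. It was at 3993, 7913 and 4935 in GF males, 6179.9, 5637 and 8927 in CV males, 5271, 8807 and 3519 in GF females and 7558, 7212 and 7509 in CV females. GF and CV libraries overlapped in both sexes. Its difference was 0.33 ± 0.36 (SE) in males and 0.44 ± 0.36 in females (limma, adjusted p = 0.51 and 0.31), so none was detected beyond the spread. Over both sexes the difference of 0.39 (adjusted p = 0.199) passed the threshold of limma without GF female 2 (0.56, adjusted p = 0.048).

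Slc40a1 encodes ferroportin, the exporter that hepcidin acts on, which in liver is made by macrophages (Kupffer cells) as well as hepatocytes. Its values were 329.5, 465.8 and 411 in GF males and 832, 646 and 844 in CV males. In females they were 578, 628 and 531 in GF and 952, 939 and 1084 in CV livers. Each CV group lay wholly above the GF group of its sex. Slc40a1 rose by 0.95 ± 0.22 (SE) in males (limma, adjusted p = 0.0066) and by 0.78 ± 0.22 in females (adjusted p = 0.0076). It was also lower in males than in females without overlap in each condition, by -0.54 in GF and -0.36 in CV livers (limma, adjusted p = 0.22 and 0.952), which did not pass. Of 8 Kupffer cell markers 4 were called higher in CV livers over both sexes, where 32.3% of all genes were higher. Among the 4 were C1qa (1.80), Vsig4 (1.18) and Cd5l (1.03). The summed value of the 8 was 1003 to 1896 in GF and 1189.7 to 2694 in CV libraries, with none at 0, and its part in the Slc40a1 difference was not tested.

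The sensors of the hepcidin pathway on hepatocytes were measured at moderate levels. Hfe encodes an MHC class I-like protein that binds transferrin receptor 1 and is lost in the common form of hereditary haemochromatosis. It lay at 131, 157 and 153 in GF males, 453, 268 and 228 in CV males, 134, 90.4 and 128 in GF females and 375, 357 and 328 in CV females. The lowest CV library was above the highest GF library. The difference was 1.04 ± 0.27 (SE) in males (limma, adjusted p = 0.0098) and 1.60 ± 0.27 in females (adjusted p = 0.000135).

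Tfr2 encodes transferrin receptor 2, a hepatocyte sensor of iron-loaded transferrin. GF males had 2159, 1356 and 1912 and CV males 3736, 1913 and 1902, which overlapped because only CV male 1 stood well above the GF libraries. GF females had 1257, 1125 and 1587 and CV females 3209.7, 3083 and 3554, which did not overlap. Tfr2 rose by 1.32 ± 0.30 (SE) in females (limma, adjusted p = 0.0014), while the difference in males was 0.43 ± 0.30 (adjusted p = 0.291). The contrast between the sexes for Tfr2 was 0.90 ± 0.42 (limma, unadjusted p = 0.048, adjusted p = 0.424). For no iron gene did the condition difference itself differ between the sexes by limma (0 of 10 called, and 2, Tfr2 and Ftl1, at an unadjusted p under 0.05), where 0% of all genes were called and 11.7% had an unadjusted p under 0.05. The tests of voom, edgeR and DESeq2 on the recovered reads also called 0 of the 10.

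Bmp6 encodes the ligand that liver endothelial cells release when iron is high. It was near the limit of detection in whole liver, with values of 4.48, 3.99 and 12.8 in GF males and 19.3, 23.9 and 5.45 in CV males. In females the values were 6.04, 0 and 11.5 in GF and 17.2, 14.8 and 15.7 in CV livers. The libraries overlapped in males, through the library labelled CV male 3, and not in females. Without it the 2 other CV males, at 19.3 and 23.9, were above the highest GF male at 12.8. The Bmp6 values of all libraries are 0 to 9 reads in GF and 6 to 41 reads in CV libraries, and a count of 0 allows up to 3 reads. Because Bmp6 passed the filter on low values only through the CV livers, its test is conditioned on the group where it is high. Without the filter the difference was 1.04 in males, 1.92 in females and 1.48 over both sexes (limma, adjusted p = 0.477, 0.099 and 0.066), none of which passed. With the filter the difference over both sexes had an adjusted p of 0.034 in limma, given here as a description. It was above 0.05 when any of 8 libraries was left out (GF male 1 or 2, GF female 2, CV male 1 or 2, any CV female), at most 0.083, with a lowest difference of 0.94 without GF female 2. With the filter the difference in females, 1.92 ± 0.81 (SE; limma, adjusted p = 0.054), passed the threshold without GF female 3 (2.67, limma adjusted p = 0.014) and without CV male 3 (1.92, adjusted p = 0.041). Bmp6 overlaps Txndc5 (mean value 772) on the opposite strand, and whether strand was used in counting is not given in the sources used here.

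Sinusoidal endothelial cells are the source of Bmp6 in liver. Over both sexes 2 of their 8 markers were called lower in CV livers, Stab2 (-1.87) and Stab1 (-1.73), and 6 were not called. Of all genes tested, 28.7% were lower in that comparison. The summed value of the 8 markers was 1504 to 4154 in GF and 728 to 2043 in CV libraries, with none at 0, and its part in the Bmp6 values was not tested.

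Hamp encodes hepcidin itself and was the most abundant of the 10 genes per kilobase of transcript in both conditions. Its values were 2418, 15057 and 4250.1 in GF males, 5459, 11479 and 18514 in CV males, 4049, 6589 and 2626 in GF females and 7244, 11097 and 11999.8 in CV females. The female groups did not overlap, and the male groups did because GF male 2 was above 2 of the 3 CV males. The difference was 0.97 ± 0.57 (SE) in males and 1.26 ± 0.57 in females (limma, adjusted p = 0.209 and 0.07), and neither passed. Over both sexes Hamp rose by 1.11 ± 0.40 (limma, adjusted p = 0.025), 2.17-fold.

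The Hamp call over both sexes depended on single libraries. It was lost in limma without GF male 1 (0.83, adjusted p = 0.08), GF male 3 (1.03, 0.06), GF female 3 (0.95, 0.062), CV male 3 (0.91, 0.061) or CV female 3 (1.04, 0.054), and in edgeR (0.89, adjusted p = 0.062) and DESeq2 (0.92, 0.101) on the recovered reads. In males the difference ranged from 0.39 without GF male 1 (limma, adjusted p = 0.672) to 1.71 without GF male 2 (adjusted p = 0.019), and it was 0.56 without CV male 3 (adjusted p = 0.514) and 1.44 without CV male 1 (adjusted p = 0.1). In females Hamp passed without GF male 1 (limma, adjusted p = 0.049), GF male 2 (0.026) or GF female 2 (1.60, adjusted p = 0.038). Of 8 hepatocyte markers, 6 were called higher in CV livers over both sexes (32.3% of all genes), 5 in females (29.8%) and 0 in males (14.1%). Their summed value was 108404 to 484498 in GF and 414635 to 710007 in CV libraries. None of the 8 was at 0, and their part in the Hamp difference was not tested.

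Hamp2 is the mouse-specific copy, with transcripts 94.6% identical to Hamp and a longest shared run of 87 bases, so that counting could have split or dropped reads of either. It was at 873, 2139.9 and 931 in GF males, 435, 619 and 3888 in CV males, 2498, 4301 and 2444 in GF females and 1767, 1509 and 648 in CV females. In males the spread covered any difference, and the library labelled CV male 3 was above all GF males, which put the mean value higher and the mean log2 value lower in CV than in GF males. CV females were below GF females without overlap. The difference of Hamp2 was -0.24 ± 0.62 (SE) in males and -1.31 ± 0.62 in females (limma, adjusted p = 0.791 and 0.082), and -0.78 ± 0.44 over both sexes (adjusted p = 0.134). None passed.

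Without CV male 3 the Hamp2 results changed. The difference over both sexes was then -1.26 (limma, adjusted p = 0.0018), in females -1.31 (adjusted p = 0.011) and in males -1.21 (adjusted p = 0.056). Hamp over both sexes was 0.91 (adjusted p = 0.061) in the same fit. The 2 remaining CV males had 435 and 619, below the lowest GF male at 873. The calls for Fth1, Ftl1, Tfrc, Hfe and Slc40a1 in males were kept in this fit.

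Hamp2 is known to be higher in female mice. GF males were below GF females without overlap, with a difference of -1.30 ± 0.62 (SE; limma, adjusted p = 0.284). In CV livers the difference was -0.24 ± 0.62 (limma, adjusted p = 0.985), and the libraries overlapped. With CV male 3 left out, Hamp2 differed by -1.21 (limma, adjusted p = 0.737), and the 2 other CV males, at 435 and 619, were below the CV females at 648 to 1767. For the difference between males and females, limma called 0 of the 10 iron genes in GF livers (1.63% of all genes called, with Fth1, Ftl1 and Slc40a1 among the 17.6% of genes at an unadjusted p under 0.05) and 0 in CV livers (0.0594% called, with 0 iron genes among the 5.1% at an unadjusted p under 0.05). On the recovered reads edgeR called 0 in either condition, and DESeq2 called 1 in GF livers, Ftl1, higher in males by 1.09 (adjusted p = 0.039), and 0 in CV livers. Without overlap, males were lower for 2 genes in GF livers, Slc40a1 and Hamp2 (18.7% of all genes did not overlap, 8.46% lower in males), and for Slc40a1 in CV livers (10.9%, 4.36% lower).

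The ratio of Hamp2 to Hamp set the copies against each other within each library. Hamp2 was 36.1%, 14.2% and 21.9% of Hamp in GF males and 7.96%, 5.39% and 21.0% in CV males. It was 61.7%, 65.3% and 93.1% in GF females and 24.4%, 13.6% and 5.40% in CV females. GF females had the highest ratios and did not overlap with CV females, whereas the males overlapped through the library labelled CV male 3. Over both sexes the log2 ratio was lower in CV livers by a mean of -1.89 (two-sided exact permutation test within labelled sex, p = 0.01, adjusted over 3 ratios 0.015), and without CV male 3 by -2.17 (exact permutation test, p = 0.005). The summed value of both genes was 8556 ± 7542 in GF males, 13464 ± 8338 in CV males, 7502 ± 3025 in GF females and 11422 ± 2088 in CV females (SD, n = 3), and the intervals of mean ± SD overlapped in each sex.

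The copies also differed in the genes whose pattern was most like theirs. By Pearson correlation of log2 values over the 12 libraries, the closest to Hamp were Eef1d (0.96), Naca (0.96), Atpif1 (0.95), Vegfb (0.94) and Cmc1 (0.94). The closest to Hamp2 were Ildr2 (0.93), Nckap1l (0.91), Epsti1 (0.88), Hspa4l (0.87) and Armcx5 (0.85). Hamp and Hamp2 correlated at 0.11 with each other. These values describe libraries that share condition, depth and composition.

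Set in order of normalized read count per kilobase of transcript, the GF levels ran from Hamp (14223 ± 11609.7, SD, n = 6) through Hamp2 (5029.5), Ftl1 (4517), Fth1 (3075), Trf (2232), Tfr2 (509.8), Slc40a1 (146), Hfe (37.0) and Tfrc (18.7) to Bmp6 (1.80). Among neighbours in this order the first 5 genes overlapped in their libraries, as did Hfe and Tfrc. In CV livers the order was Hamp (26745 ± 11043), Ftl1 (19627), Fth1 (11164), Hamp2 (3381), Trf (2789), Tfr2 (944), Slc40a1 (262), Hfe (93.7), Tfrc (8.06) and Bmp6 (4.46). The ferritins thus stood above Hamp2 in CV livers, and among the neighbours Hamp and Ftl1, and Hamp2 and Trf, overlapped.

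Because a few loci took so many GF reads, the size of each difference depended on how libraries were scaled, which moved all genes together. The median of all genes over both sexes was 0.07 with the deposited size factors, 0.01 with TMM factors, 0.62 when scaled to all reads, 0.48 when scaled to the reads outside mitochondrial ribosomal RNA and -0.38 when scaled to the reads outside the 7 loci. Under these 5 scalings Bmp6 lay 1.24 to 1.45 above that median. The other 9 genes moved less relative to it. A scaling shifts all genes of a library alike, apart from the effect of the added 1 on low values. These distances were thus nearly fixed in advance and do not test the differences. Fth1 lay 1.91 to 1.93 above the median, Ftl1 2.22 to 2.24, Hfe 1.24 to 1.25 and Hamp 1.03 to 1.05. Tfrc lay at -1.25 to -1.24 and Hamp2 at -0.86 to -0.84 relative to the median. Without that reference, Tfrc was no longer called in either sex when scaled to all reads (-0.75 in males and -0.48 in females; limma, adjusted p = 0.103 and 0.239). Scaled to the reads outside the 7 loci, the calls were lost for Hfe in males (0.74, adjusted p = 0.066), for Slc40a1 (0.16, 0.512) and Tfr2 (0.70, 0.064) in females, and for Hamp (0.65, 0.138), Tfr2 (0.41, 0.112) and Bmp6 (1.08, 0.16) over both sexes, while Hamp2 was called lower over both sexes (-1.24, 0.024) in limma. Fth1 and Ftl1 were called higher under all 5 scalings.

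**Figure D4:**
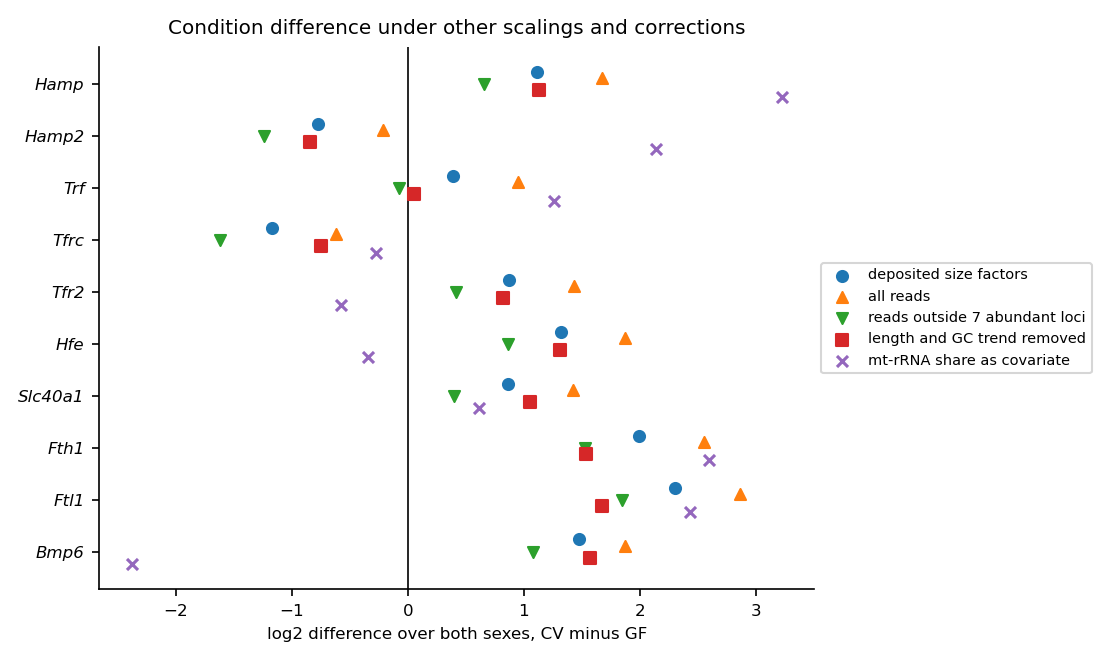
Log2 difference over both sexes, CV minus GF, of each iron gene under the deposited size factors, 2 other scalings, removal of a length and GC trend, and the mitochondrial ribosomal RNA (mt-rRNA) share as a covariate. Fth1 and Ftl1 stay at 1.53 or more throughout, whereas Hfe, Tfr2, Bmp6 and Hamp2 change sign with the covariate.

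Genes around these 10 were described from lists of the pathway. Of 21 tested genes of BMP-SMAD control of hepcidin, 8 were higher and 2 lower in CV livers over both sexes by limma, with a median log2 difference of 0.27 against 0.07 for all genes. Of all genes tested, 32.3% were higher and 28.7% lower in that comparison, shares against which the counts of this and the next 3 lists are to be read. Without CV female 1, 5 of the 21 were higher. The higher genes included Fgl1 (2.09 ± 0.36, SE), which encodes a liver-secreted fibrinogen-like protein, Id1 (1.32 ± 0.17), a BMP target gene, and Tmprss6 (1.30 ± 0.18), a protease that restrains hepcidin. The lower genes were Bmp2 (-1.05 ± 0.27), another endothelial ligand, and Smad5 (-0.70 ± 0.18), a signal transducer of BMP receptors. Id1 rose from 51.1 ± 11.6 to 182 ± 29.1 in males and from 83.1 ± 4.60 to 148 ± 19.9 in females (SD, n = 3).

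For the IL-6 and STAT3 signal to hepcidin, 1 of 10 tested genes was higher and 2 were lower (32.3% and 28.7% of all genes), with a median of 0.01. Cebpa, a hepatocyte transcription factor that binds the hepcidin promoter, rose by 1.55 ± 0.20 (SE). Il6ra, the IL-6 receptor chain, fell by 0.53 and Jak1, its kinase, by 0.37 on the log2 scale (limma, adjusted p = 0.026 and 0.044). Of the list, 0 genes were called lower without GF male 1, GF female 1 or 3, CV male 3 or CV female 1, and 1 without GF male 3, CV male 2 or CV female 2 or 3. Il6 and Il22 were too low to test, with mean values of 0.344 and 0, and Il22ra1 likewise with 7.63. Erfe, the erythroid hormone that lowers hepcidin, also was, with a mean value of 0.961.

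Of 20 tested genes of iron uptake, export and release, 12 were higher and 2 lower (32.3% and 28.7% of all genes), with a median of 0.93. Lcn2, which binds bacterial iron carriers, rose by 2.32 ± 0.43 (SE), Slc46a1, a folate and haem transporter, by 2.06 ± 0.23, and Hpx, the haem-binding plasma protein haemopexin, by 2.04 ± 0.31. Slc39a14, a transporter that brings unbound iron into hepatocytes, fell by 1.26 on the log2 scale and Flvcr1, a haem exporter, also by 1.26. Slc39a14 went from 2103 ± 645 to 833 ± 79.1 in males and from 1829 ± 421 to 767 ± 44.2 in females (SD, n = 3).

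Of 14 tested genes of iron sensing and use inside cells, 8 were higher and 1 was lower (32.3% and 28.7% of all genes), with a median of 0.52. Glrx5 (2.12 ± 0.22, SE) and Iscu (1.27 ± 0.21), of iron-sulfur cluster assembly in mitochondria, rose, as did Skp1a (1.54 ± 0.21), a part of ubiquitin ligases. Slc25a37, the mitochondrial iron importer mitoferrin 1, fell by 1.51 on the log2 scale. It is also an erythroid gene, and the erythroid values are given beside Tfrc.

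**Figure D5:**
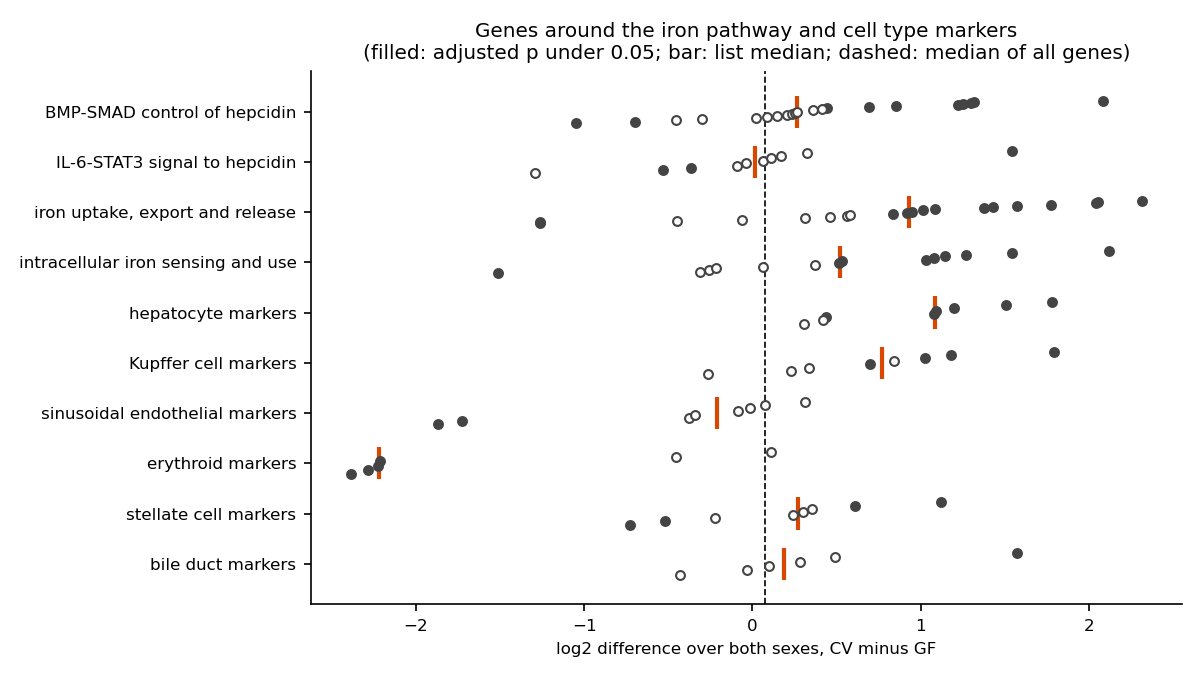
Log2 difference over both sexes, CV minus GF, of each tested gene in 4 lists of the iron pathway and 6 lists of cell type markers, filled where the adjusted p of limma was under 0.05, with a bar at the list's median and a dashed line at the median of all genes (0.07). The median of the uptake, export and release list is 0.93, and that of the erythroid markers is -2.22.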

How the data were processed

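Per the labels, RNA from snap-frozen livers was made into stranded poly(A) libraries. The submitters' processing notes name HTSeq 0.6.1p1, DESeq2 and build GRCm38. The aligner, the annotation and the use of strand in counting are not given in the sources used here, and the paper named for the series describes a brain experiment, so nothing but style was taken from it. The deposited unit is a signal, that is, gene counts that the authors divided by 1 size factor per library. Dividing by the smallest step of a library gave whole numbers for 100% of its genes, to within 0.01 reads, so whole reads were recovered, and the size factors equalled median-of-ratios factors. 41128 genes were in the table. Coordinates come from GENCODE mouse M21 and promoter windows from RefSeq.

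Log2(value + 1) of 11782 genes with a mean value of at least 10 was tested with limma 3.58.1 (R 4.3.3): 12 libraries in 1 fit, 4 group means, a variance trend, and Benjamini-Hochberg adjusted p-values called under 0.05. Fold changes on this scale understate the change of low genes. Standard errors are from the fit. Ratios were tested by exact permutation within labelled sex (400 relabellings). The limma step was checked on simulated data. Alternatives were pseudocounts, filters, scalings, read shares as covariates, the replicate block, removal of a loess trend on length and GC, each library left out, voom, and edgeR 4.0.16 and DESeq2 1.42.0 on recovered reads. The setting with 7 abundant loci, chosen after their values were seen, and the ratios without CV male 3 were added later. The iron genes and the lists were chosen with earlier results of these data known. Named were all 10 iron genes, up to 3 genes per direction of each list with the largest differences among those called over both sexes, list genes not tested, and the 5 genes with an established symbol most correlated with Hamp and Hamp2. Marker genes were named in the same way, and Alas2, Epor and Txndc5 were chosen after their values were seen. Of the markers of stellate cells and bile duct, 2 and 1 were higher and 2 and 0 lower of 8 and 6 tested. Over both sexes 32.3% of all genes were higher and 28.7% lower.

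Replicate numbers pair samples only by the data. Deviations of same-numbered libraries from their group means correlated at 0.19, 0.12 and 0.17 between CV males and CV females. Libraries of different number correlated there at -0.17 to 0.01. Between GF males and GF females the same numbers gave 0.06, 0.40 and 0.07, and different numbers -0.41 to 0.39. Same numbers of GF and CV of 1 sex gave -0.23 to 0.02. The numbers were taken as pairs for the CV sex comparison alone, by these weak correlations and with the library labelled CV male 3 in 1 pair. There the block changed no call of an iron gene (0 iron genes called).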

Additional observations from a re-analysis of the deposited data

Results flagged for a closer look

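In 6 GF livers, the normalized read count of Hamp in the library GF male 2 was 15057, and the other 5 libraries lay between 2418 and 6589. The gap to the nearest library was 0.67 of the whole range, above Dixon's critical value of 0.625 for 6 samples. Among 26 measures examined in this way it was the only such library. Chance gives 1 in 20 for each measure, so 1 among 26 is no more than chance alone would give. The 6 GF values hold both sexes. The same library had 2139.9 for Hamp2, the highest value among GF males. Without it the Hamp difference in males was 1.71 (limma, adjusted p = 0.019), against 0.39 without GF male 1 (0.672), 0.56 without CV male 3 (0.514) and 0.97 with all libraries (0.209).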

How the results depend on the processing

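With the mitochondrial ribosomal RNA share, the share of the 7 loci, or the replicate block plus the former as a covariate, limma called 0 iron genes in males, in females and over both sexes. Of all 11782 genes the first of these fits called 3, 0 and 0 in these comparisons, the second 13, 0 and 7, and the third 12, 0 and 0. These shares differ between the conditions without overlap, so little of the condition difference remains to be estimated in such fits. In them the direction of several differences turned, and the values below are for the first, the second and the third of these fits. Over both sexes Hamp2 was 2.14, 1.58 and 1.92, Tfr2 -0.58, -0.071 and -0.25, Hfe -0.34, -0.49 and -0.28, and Bmp6 -2.38, -0.81 and -1.996. In males Hamp2 was 1.51, 1.33 and 1.37, Tfr2 -0.45, -0.20 and -0.25, and Bmp6 -1.28, -0.49 and -1.05. In females Hamp2 was 2.78, 1.84 and 2.47, Hfe -0.72, -0.82 and -0.64, and Bmp6 -3.48, -1.14 and -2.94. Turned in some of these fits were Tfr2 in females (-0.71 in the first and -0.25 in the third), Hfe in males (-0.16) and Slc40a1 in females (-0.030) in the second, and Tfrc over both sexes (0.17) and in females (0.59) in the third. Hamp2, males minus females in GF livers, was 0.16 in the first and 0.047 in the third. Fth1, Ftl1 and Hamp kept their direction in all 3 fits.

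Of other settings, scaling outside the 7 loci turned Trf over both sexes (-0.074) and in females (-0.18), and removal of the length and GC trend turned Trf in females (-0.014). Hamp2 in males turned when scaled to all reads (0.067), in edgeR (0.27) and in DESeq2 (0.31), and Hamp2, males minus females in CV livers, turned in edgeR (0.32) and DESeq2 (0.36). The cause was not tested. Iron genes called between males and females in GF livers numbered 2 when scaled to all reads, 2 outside mitochondrial ribosomal RNA, 1 outside the 7 loci, 1 in DESeq2 and 0 under the remaining settings with all 12 libraries. Of all genes the first 3 of these settings called 1393, 1073 and 141, and DESeq2 425, against 192 with the deposited size factors. With each library left out in turn, that count was 0 to 2 (2 without GF female 2, where 716 of all genes were called), and the counts by condition were 4 to 6 in males, 6 to 8 in females and 6 to 8 over both sexes. Over the same 12 fits Hamp2 ranged from -1.21 to 0.37 in males and from -1.21 to 0.37 for males minus females in CV livers. The ratios ranged from -2.17 to -1.60 for Hamp2 to Hamp, from 0.25 to 0.36 for Ftl1 to Fth1 and from -3.37 to -2.91 for Tfrc to Fth1, all with an adjusted p of 0.045 or less (exact permutation). For Tfrc to Fth1 this p followed from the separation of both genes and is no further test. Without a filter on low values, the calls over both sexes were lost for Hamp (limma, adjusted p = 0.06) and Bmp6 (0.066). In limma, calls were gained in females for Hamp, Hamp2 and Bmp6 with the length and GC trend removed (adjusted p = 0.019, 0.024 and 0.039), for Hamp and Hamp2 in the fit on the 6 female libraries alone (0.014 and 0.013), for Hamp, Trf and Bmp6 when scaled to all reads (0.0016, 0.0023 and 0.013) or outside mitochondrial ribosomal RNA (0.0046, 0.0091 and 0.022), and for Hamp2 outside the 7 loci (0.016). Trf over both sexes was called when scaled to all reads (0.95, adjusted p = 0.0012) or outside mitochondrial ribosomal RNA (0.80, 0.0048), and Hamp in males with the trend removed (1.10, 0.046). Scaled outside mitochondrial ribosomal RNA, Tfrc was not called in males (0.075) or females (0.098).

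Between GF and CV the replicate numbers share only a number. With the replicate number as a block, limma called 5 iron genes in males, 7 in females and 8 over both sexes, and the 1 call that it changed was Hamp in females (1.26, adjusted p = 0.033). Depth limits Bmp6 and Tfrc most, with at most 41 and 139 reads per library.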
